A study of Homo sapiens with 12 samples.

Results

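The 10 genes described here encode brakes on mitogen-activated protein (MAP) kinase signalling: 7 MAP kinase phosphatases (DUSP1, DUSP4, DUSP5, DUSP6, DUSP8, DUSP10 and DUSP16) and 3 feedback inhibitors of the Sprouty and SPRED families (SPRY2, SPRY4 and SPRED1). They were chosen by name, through the Ensembl identifiers that GENCODE 29 pairs with these symbols, and are 10 of the 59191 rows of the deposited table. The 12 libraries are RNA sequencing of Huh7, a long-established line grown from a human liver cancer. The 4 groups of 3 libraries were a control group whose columns are named for the solvent DMSO, a disulfiram group, a thalidomide group and a combination group that received the 2 drugs. Disulfiram, a drug against alcohol dependence, blocks aldehyde dehydrogenase, and thalidomide is an immunomodulatory drug that binds the ubiquitin ligase receptor cereblon. The column names carry drug numbers without a unit, and neither the dose unit nor the length of treatment is given in the sources used here. All 4 groups are of this line, so each comparison stands for 1 line.

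MAP kinases are switched on by phosphorylation of a threonine and a tyrosine in their activation loop, and MAP kinase phosphatases switch them off by removing both phosphates. DUSP1, DUSP4 and DUSP5 are nuclear enzymes made quickly after stimulation, DUSP6 is a cytoplasmic enzyme that prefers ERK, and DUSP8, DUSP10 and DUSP16 prefer the stress kinases JNK and p38. Sprouty and SPRED proteins act higher up, between growth factor receptors and RAF. Many of these genes are themselves switched on by the kinases they restrain, so their transcripts are often read together with other targets of ERK.

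Levels are given as TPM, a share of all transcripts in a library that is scaled for transcript length. Every member was at 1 TPM or more in all 12 libraries, and all 10 passed the filter of at least 1 TPM in at least 3 libraries that left 15352 genes for testing. A fold change below is a difference on the log2(TPM + 1) scale ± its standard error, which understates the change of low genes. Adjusted p-values come from limma with Benjamini-Hochberg adjustment over all 15352 genes, 3 libraries a group, with 0.05 as the threshold. No label says that the 3 libraries of a group were separate cultures, so these p-values measure only the spread between libraries. In cultures measured in bulk, fewer expressing cells and less RNA per cell cannot be told apart.

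Of 9 hepatocyte and hepatoma markers, all 9 were at 1 TPM or more in at least 1 group mean and their summed level was 4308 to 6840 TPM in the controls, 4093 to 4146 with disulfiram, 5493 to 7639 with thalidomide and 3689 to 4803 with the combination. The disulfiram libraries thus lay below every control library in this sum. Of 6 immune markers CD14 and LYZ reached 1 TPM, with group means of up to 141.9 and 12.2 TPM, and the leukocyte marker PTPRC stayed at or below a group mean of 0.053 TPM. The immune sum was 104.5 to 174.1 TPM in the controls, 64.4 to 131.0 with disulfiram, 117.7 to 169.3 with thalidomide and 87.3 to 96.3 with the combination. Of 4 endothelial markers only PECAM1 reached 1 TPM, and the summed level of the 4 was 0.79 to 1.55 TPM in the controls, 3.52 to 7.42 with disulfiram, 1.66 to 2.51 with thalidomide and 3.83 to 5.43 with the combination. VWF, CDH5 and KDR stayed at or below group means of 0.27, 0.12 and 0.0033 TPM. Of 5 fibroblast and stellate markers COL1A1 and PDGFRB reached 1 TPM, and the sum of the 5 overlapped between all groups, from 8.02 to 15.5 TPM. The part of these marker levels in the results was not tested. The second disulfiram library and the second combination library stood apart in base composition: Spearman's rho across genes between a gene's GC content and its deviation from the mean of the library's own group was 0.60 and 0.66 in them, against -0.59 to -0.30 in the other libraries of those groups. The thalidomide libraries were also spread, with 0.48 in the first, -0.064 in the second and -0.39 in the third. The controls lay between -0.18 and 0.13.

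In the controls the members lay, from high to low, in the order DUSP1, DUSP4, DUSP5, DUSP10, DUSP16, SPRY2, SPRY4, DUSP8, DUSP6 and SPRED1, with mean levels from 156 down to 1.48 TPM. The libraries of DUSP5, DUSP10, DUSP16, SPRY2 and SPRY4 overlapped from each gene to the next in this order. Differences between these neighbours within a library were not tested. DUSP1, DUSP4, DUSP8, DUSP6 and SPRED1 did not overlap with the genes next to them.

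With disulfiram, 3 of the 10 members rose (DUSP1, DUSP5 and DUSP10), 1 fell (SPRY4) and 6 did not pass the threshold. Of all genes tested, 13.2% were called in this comparison, 8.73% higher and 4.52% lower. The median log2 fold change of the 10 members was -0.0041, beside 0.092 for all genes tested. The libraries of the groups did not overlap for 4 members that were higher and 1 that was lower, beside 21.5% and 11.4% of all genes. The 3 genes that rose are phosphatases, and the 1 that fell is a Sprouty. DUSP4, DUSP6, DUSP8 and DUSP16, also phosphatases, did not pass, nor did SPRY2 and SPRED1.

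**Figure D1:**
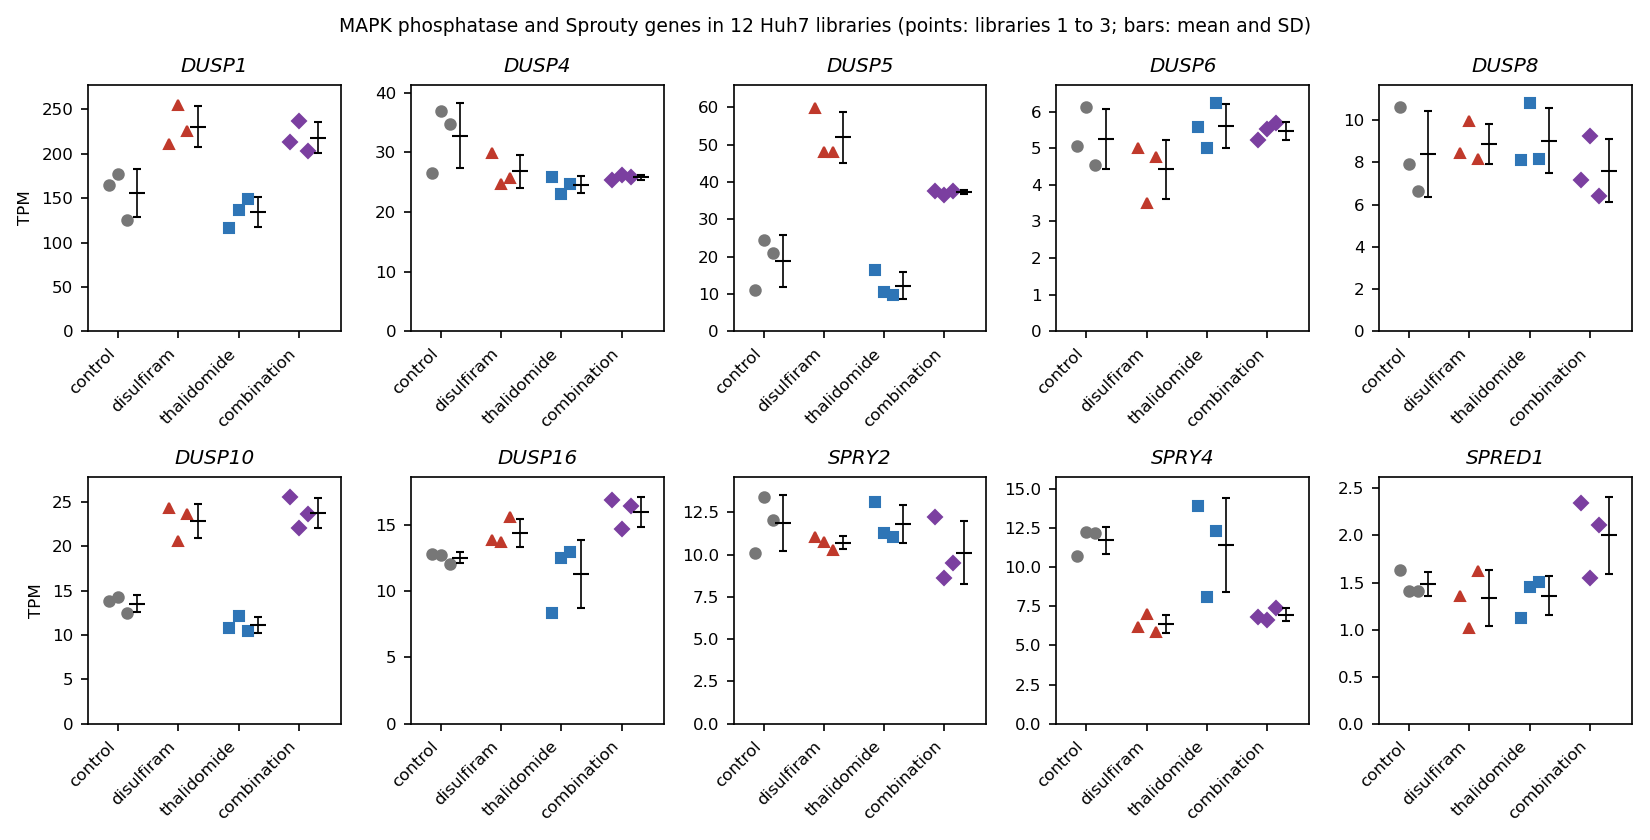
TPM of each of the 10 members (vertical axes, 1 panel a gene) in the 12 libraries by group (horizontal axis), with each point a library and the bars beside them the group mean and SD. DUSP5 lay at 48.0 to 59.8 TPM in the disulfiram libraries against 11.2 to 24.6 in the controls, while SPRY4 lay at 5.89 to 7.02 against 10.7 to 12.3.

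DUSP1 (ENSG00000120129, hg38 chr5:172768090-172771195, minus strand), the founding MAP kinase phosphatase and an immediate early gene, was the most abundant of the 10. The control libraries held 164, 178 and 125 TPM of it, and the disulfiram libraries 211, 255 and 226 TPM. All 3 disulfiram libraries lay above all 3 controls, with means of 231 ± 22.8 against 156 ± 27.4 TPM (SD, n = 3). The log2 fold change was 0.57 ± 0.13 (limma, adjusted p = 0.0160), and without the third control library, the lowest, it was 0.42 with an adjusted p of 0.0535. The antisense gene AC022217.3 overlaps DUSP1, and since the strand of the libraries is not known, reads of the pair cannot be told apart; it was listed at no more than 0.26 TPM.

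The RefSeq promoter of DUSP1 (GRCh38.p14) is shown because DUSP1 was 1 of only 2 members whose start-site window held the cyclic AMP response element TGACGTCA, and the other, DUSP8, did not pass the threshold in any comparison. Each line gives the 250 bases before the start, 5′ to 3′ on the gene's strand, with TGACGTCA and its shortened form TGACGT in capitals.
DUSP1, chr5:172771196-172771445, minus strand: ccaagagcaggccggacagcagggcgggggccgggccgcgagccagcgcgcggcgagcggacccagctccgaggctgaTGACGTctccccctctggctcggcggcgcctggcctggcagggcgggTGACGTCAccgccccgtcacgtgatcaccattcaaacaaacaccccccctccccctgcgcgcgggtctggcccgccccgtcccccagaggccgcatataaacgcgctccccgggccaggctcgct
DUSP8, chr11:1572272-1572521, minus strand: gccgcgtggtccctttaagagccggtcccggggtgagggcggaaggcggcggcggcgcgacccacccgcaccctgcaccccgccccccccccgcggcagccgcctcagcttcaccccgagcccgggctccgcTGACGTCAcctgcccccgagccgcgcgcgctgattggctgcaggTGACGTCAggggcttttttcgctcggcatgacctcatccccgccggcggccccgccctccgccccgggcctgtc
In DUSP1 the full element begins 125 bases before the start and a separate short element 172 bases before it, and in DUSP8 full elements begin 118 and 74 bases before it. RefSeq windows of 300 bases, from 250 before to 50 after the start, were matched for 8 of the 10 members, which leaves out DUSP4 and DUSP5. Only for DUSP1 was the RefSeq start the same as the GENCODE start of the coordinates given here. Counted in the gene's direction from the GENCODE start, it lay at -351 bases for DUSP8, 770 for DUSP6 and 2208 for SPRY4. A missing match in such a window does not describe the sequence at the GENCODE start. On both strands, TGACGTCA was found in 2 of these 8 and in 1.85% of 35116 promoters, and TGACGT, which every TGACGTCA contains, in the same 2 and in 7.98%. The metal response element, searched as TGCACNC or TGCGCNC, was in 5 of the 8 (DUSP1, DUSP8, DUSP16, SPRY2 and SPRED1) and in 29.6% of promoters. The AP-1 site (TGACTCA or TGAGTCA), the heat shock element (GAANNTTC or TTCNNGAA), the serum response CArG box and the ETS site (CCGGAAGT) had no match in the 8 windows, and their shares over all promoters were 4.95%, 13.5%, 1.29% and 4.14%. A match to letters is a description of the sequence and not a bound site.

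DUSP5 (ENSG00000138166, chr10:110497838-110511544, plus strand), a nuclear phosphatase specific for ERK, had the largest fold change of the 10. The control libraries held 11.2, 24.6 and 21.0 TPM and the disulfiram libraries 59.8, 48.0 and 48.1 TPM. The lowest disulfiram library stood above the highest control, and the means were 52.0 ± 6.80 and 18.9 ± 6.92 TPM (SD, n = 3). The log2 fold change of 1.47 ± 0.24 (limma, adjusted p = 0.00284) passed the threshold in 23 of 23 alternative analyses. The control libraries were themselves spread widely, the first being the lowest.

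DUSP4 (ENSG00000120875, chr8:29333064-29350668, minus strand), a nuclear phosphatase of ERK, JNK and p38, had control values of 26.6, 37.0 and 34.8 TPM and disulfiram values of 29.9, 24.7 and 25.8 TPM. These groups overlapped, since the first control lay below the first disulfiram library. The log2 fold change was -0.27 ± 0.12 (limma, adjusted p = 0.163), with a 95% interval of -0.54 to -0.01. Without the first control library it was -0.41 with an adjusted p of 0.0382, and with array weights -0.33 with an adjusted p of 0.0403; the other 21 alternatives did not pass.

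DUSP6 (ENSG00000139318, chr12:89347232-89353271, minus strand), the cytoplasmic ERK phosphatase and a widely used readout of ERK activity, was low in these cells. Control values of 5.07, 6.13 and 4.54 TPM overlapped disulfiram values of 5.01, 3.51 and 4.76 TPM. Its log2 fold change was -0.21 with a 95% interval of -0.53 to 0.11 (limma, adjusted p = 0.396). The overlapping antisense gene AC024909.2 was at no more than 0.41 TPM.

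Of the phosphatases that prefer JNK and p38, only DUSP10 passed the threshold with disulfiram. DUSP10 (ENSG00000143507, chr1:221701424-221742176, minus strand) had 13.9, 14.3 and 12.4 TPM in control libraries, against 24.3, 20.6 and 23.6 TPM after disulfiram. The 2 groups were well apart, with means of 13.5 ± 0.991 and 22.9 ± 1.96 TPM (SD, n = 3). The log2 fold change was 0.71 ± 0.10 (limma, adjusted p = 0.00145), past the threshold in 23 of 23 alternatives.

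DUSP16 (ENSG00000111266, chr12:12474210-12562383, minus strand), which acts mainly on JNK, had control values of 12.8, 12.7 and 12.1 TPM and disulfiram values of 13.8, 13.7 and 15.6 TPM. The disulfiram libraries all lay above the controls, but the log2 fold change of 0.18 ± 0.14 did not pass (limma, adjusted p = 0.446; 95% interval -0.13 to 0.50). A lincRNA on the other strand, AC007619.1, overlaps it and was at no more than 0.33 TPM. DUSP8 (ENSG00000184545, chr11:1554044-1571920, minus strand) had control values of 10.6, 7.94 and 6.65 TPM that overlapped its disulfiram values of 8.47, 9.98 and 8.18 TPM. Its log2 fold change was 0.09, with a 95% interval of -0.30 to 0.48 (limma, adjusted p = 0.7997). Its antisense partner KRTAP5-AS1 was at no more than 0.83 TPM.

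Among the Sprouty and SPRED genes the change with disulfiram was a fall of SPRY4. SPRY4 (ENSG00000187678, chr5:142310427-142326455, minus strand), an inhibitor of receptor tyrosine kinase signalling to RAS and RAF, had 10.7, 12.3 and 12.2 TPM in control libraries, against 6.20, 7.02 and 5.89 TPM after disulfiram. The groups did not overlap, and the means were 11.7 ± 0.862 and 6.37 ± 0.584 TPM (SD, n = 3). The log2 fold change was -0.79 ± 0.16 (limma, adjusted p = 0.00905), past the threshold in 23 of 23 alternatives. Its antisense gene SPRY4-AS1 was itself listed at 2.51 to 6.60 TPM, with group means of 5.92 in the controls, 5.11 with disulfiram, 2.93 with thalidomide and 4.31 with the combination, so the split of reads between the 2 genes is uncertain.

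SPRY2 (ENSG00000136158, chr13:80335976-80340951, minus strand), a Sprouty that acts on the same receptor signals, had control values of 10.1, 13.4 and 12.0 TPM and disulfiram values of 11.1, 10.7 and 10.3 TPM. The groups overlapped and the log2 fold change of -0.13 had a 95% interval of -0.43 to 0.17 (limma, adjusted p = 0.599). SPRED1 (ENSG00000166068, chr15:38252326-38357249, plus strand), which recruits the RAS inhibitor neurofibromin to the membrane, was the lowest member, with control values of 1.63, 1.41 and 1.41 TPM and disulfiram values of 1.36, 1.02 and 1.62 TPM. Its log2 fold change was -0.10 (limma, adjusted p = 0.750; 95% interval -0.45 to 0.25).

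SPRED1 and DUSP8 lie at the ends of the members' base composition, with 38.9% and 64.6% GC in their longest transcripts. SPRED1 was lowest and DUSP8 highest in the second library of both the disulfiram and the combination group, the 2 libraries that stood apart in GC content. The part of base composition in these values was not tested. Without those libraries, 4 members were called with disulfiram and 4 with the combination against control, the same numbers as with them, while the calls over all genes went from 2034 to 2527 and from 3852 to 5850.

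With thalidomide alone no member passed the threshold, and no gene did (0% of all genes tested in limma, adjusted over all genes). At an unadjusted p below 0.05, 3 members and 873 genes fell under that level. The members' log2 fold changes ran from -0.56 to 0.10, with a median of -0.12. DUSP4 was at 25.9, 23.1 and 24.7 TPM with thalidomide, below every control library (limma, log2 fold change -0.39 ± 0.12, adjusted p = 0.739). DUSP10, at 10.8, 12.2 and 10.5 TPM, was also below every control (-0.26 ± 0.10, adjusted p = 0.834). DUSP5, at 16.3, 10.6 and 9.67 TPM, overlapped the controls (-0.56 ± 0.24, adjusted p = 0.855). Libraries of the groups did not overlap for 2 members that were lower and 0 that were higher, beside 6.32% and 3.91% of all genes.

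The 7 remaining members had unadjusted p-values of 0.05 or more with thalidomide. Among them DUSP1 was at 116, 137 and 149 TPM, overlapping the controls and below every disulfiram library. SPRY4 was at 14.0, 8.12 and 12.3 TPM, a wider spread than in any other group, with a mean of 11.5 ± 3.01 TPM (SD, n = 3) beside 11.7 in the controls. DUSP16 was at 8.31, 12.5 and 13.0 TPM, with the first thalidomide library the lowest of all 12.

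With both drugs, DUSP1, DUSP5 and DUSP10 were again called higher than control and SPRY4 lower, and 6 members did not pass. In this comparison 25.1% of all genes were called, 18.4% higher and 6.70% lower, and the median log2 fold change was 0.20 over all genes and 0.16 over the 10 members. DUSP1 was at 213, 237 and 203 TPM with the combination (mean 218 ± 17.5; log2 fold change 0.50 ± 0.13, limma adjusted p = 0.0222). DUSP5 was at 37.7, 36.6 and 37.7 TPM (1.01 ± 0.24, adjusted p = 0.0143). DUSP10 was at 25.5, 22.1 and 23.6 TPM (0.77 ± 0.10, adjusted p = 0.00109), and SPRY4 was at 6.82, 6.63 and 7.43 TPM (-0.68 ± 0.16, adjusted p = 0.0142). None of these 4 genes had a combination library within the range of the controls.

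Relative to the median of all genes, the combination's changes were 0.29 for DUSP1, 0.81 for DUSP5, 0.57 for DUSP10 and -0.88 for SPRY4 on the log2 scale. The call for DUSP1 depended on the scaling: with median-of-ratios scaling its log2 fold change was 0.29 with an adjusted p of 0.147, and 2 members were then higher and 2 lower, DUSP4 having joined the genes called lower. Over all genes that scaling moved the split from 2823 higher and 1029 lower to 1351 and 1877. With disulfiram alone it gave 768 higher and 969 lower where the unscaled values gave 1340 and 694, and the members stayed at 3 and 1. Under quantile normalization DUSP1 kept its call with the combination, and 3 members were higher and 3 lower, beside 1254 and 1748 of all genes. DUSP4 (-0.46, limma adjusted p = 0.0221) and SPRY2 (-0.47, adjusted p = 0.0351) were then called lower. The call for DUSP1 against control with the combination was also lost without the filter on low values (adjusted p = 0.0581), when the third control library was left out (0.0766), and without the first (0.0608) or without the third combination library (0.0509). DUSP5 missed the threshold without the third combination library (adjusted p = 0.0509).

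**Figure D2:**
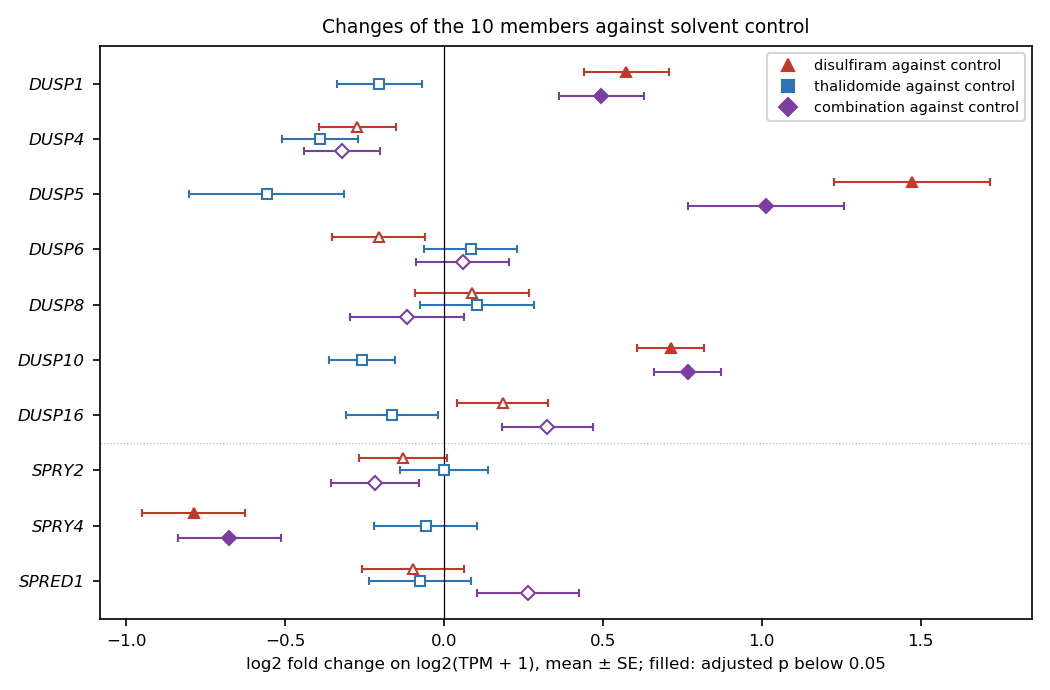
Log2 fold change (horizontal axis) of the 10 members (vertical axis) for disulfiram, thalidomide and the combination against control, with bars for the standard error and filled points for an adjusted p below 0.05. DUSP1, DUSP5, DUSP10 and SPRY4 have filled points with disulfiram and with the combination, and no point for thalidomide is filled.

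Among the members that did not pass with the combination, DUSP4 and DUSP16 had no overlap with the controls. DUSP4 was at 25.3, 26.3 and 25.8 TPM, below every control (log2 fold change -0.32 ± 0.12, limma adjusted p = 0.0681). It passed the threshold in 5 alternatives, among them median-of-ratios scaling (-0.52, adjusted p = 0.0146) and the fit without the first control library (-0.46, adjusted p = 0.0218). DUSP16 was at 16.9, 14.7 and 16.4 TPM, above every control (0.33 ± 0.14, adjusted p = 0.108). In total 4 members were higher and 2 lower without overlap, beside 33.9% and 12.1% of all genes.

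The other members spanned 0 in their 95% intervals with the combination. DUSP6, at 5.21, 5.52 and 5.69 TPM, had an interval of -0.26 to 0.38. DUSP8, at 7.17, 9.27 and 6.42 TPM, had one of -0.51 to 0.27. SPRY2, at 12.2, 8.63 and 9.48 TPM, had one of -0.52 to 0.09, and SPRED1, at 2.34, 1.55 and 2.11 TPM, had one of -0.09 to 0.62.

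Adding thalidomide to disulfiram gave no call among the members, and 1 gene of 15352 (0.00651%) passed in that comparison, beside 2631 at an unadjusted p below 0.05. The 95% intervals of the log2 fold change were -0.37 to 0.21 for DUSP1, -0.18 to 0.28 for DUSP10 and -0.24 to 0.47 for SPRY4. These intervals reflect only the spread between libraries and are not adjusted for the number of genes. DUSP5 was lower in every combination library than in every disulfiram library, with a log2 fold change of -0.46 ± 0.24 (limma, adjusted p = 0.337; interval -0.99 to 0.07). DUSP6 was higher in every combination library (0.26 ± 0.15, adjusted p = 0.349). These 2 members, 1 lower and 1 higher, had no overlap, beside 6.54% and 9.69% of all genes. SPRED1 had an unadjusted p of 0.0443 and a log2 fold change of 0.36 ± 0.16, with overlapping libraries (adjusted p = 0.285). After GC correction that value was -0.013, and over all genes the fold changes of this comparison had a Spearman's rho of -0.63 with GC content. The same rho was -0.44 for the combination against control, -0.49 against thalidomide and -0.62 for the interaction of the drugs described below. It was 0.0010 for disulfiram against control and 0.20 for thalidomide against control.

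Adding disulfiram to thalidomide gave 5 calls: DUSP1, DUSP5, DUSP10 and DUSP16 were higher and SPRY4 lower, beside 32.2% of all genes called, 25.0% higher and 7.24% lower. Libraries did not overlap for 5 members that were higher, SPRED1 among them, and 1 that was lower, beside 33.9% and 10.8% of all genes. With median-of-ratios scaling 1811 genes were called higher and 2255 lower in place of 3834 and 1112, and the members became 3 higher and 2 lower; quantile normalization (1685 and 2014) and GC correction (1731 and 1958) gave the members the same split. Without the second disulfiram and combination libraries 6 members were called, 5 higher and 1 lower, and 6468 genes beside 4946. The log2 fold changes were 0.70 ± 0.13 for DUSP1 (limma, adjusted p = 0.00424) and 1.57 ± 0.24 for DUSP5 (adjusted p = 0.00148). They were 1.02 ± 0.10 for DUSP10 (adjusted p = 0.000138), 0.49 ± 0.14 for DUSP16 (adjusted p = 0.0248) and -0.62 ± 0.16 for SPRY4 (adjusted p = 0.0164). All genes had a median of 0.22 here, and relative to it the 5 changes were 0.48, 1.35, 0.81, 0.27 and -0.84. The call for DUSP16 passed in 14 of 23 alternatives, with adjusted p-values up to 0.193. It was lost without the first thalidomide library (log2 fold change 0.30, limma adjusted p = 0.0787), without the first combination library (0.0865) and without the third (0.0809), and with median-of-ratios scaling (0.27, adjusted p = 0.120). SPRY4 lost its call without the first thalidomide library (adjusted p = 0.0710) or the first combination library (0.0548). The comparisons of each treatment with control share the control libraries, and the comparisons of the combination share its libraries, so their values are not independent of each other.

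Whether the effect of the combination differed from the sum of the single drugs was tested as an interaction on the log2 scale. No member and no gene passed (0% in limma), and 0 members and 1580 genes were at an unadjusted p below 0.05. The members' interaction values ran from -0.31 for DUSP8 to 0.44 for SPRED1, whose 95% interval was -0.06 to 0.93 (limma, adjusted p = 0.466).

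Summed by role, the 3 nuclear inducible phosphatases DUSP1, DUSP4 and DUSP5 together made up 180.9 to 239.3 TPM in the controls, 299.5 to 328.2 with disulfiram, 158.6 to 183.6 with thalidomide and 267.0 to 300.3 with the combination. The 3 stress kinase phosphatases DUSP8, DUSP10 and DUSP16 made up 31.1 to 37.3 TPM in the controls and 44.3 to 47.4 with disulfiram. They made up 27.2 to 35.5 TPM with thalidomide and 46.0 to 49.5 with the combination. The sum of SPRY2, SPRY4 and SPRED1 was 22.5 to 27.1 TPM in the controls, 17.8 to 18.8 with disulfiram, 20.9 to 28.2 with thalidomide and 16.8 to 21.4 with the combination. These sums carry no test, and the members of a role did not all move alike. With disulfiram DUSP4 had a log2 fold change of -0.27, and DUSP10 and SPRY4 were the only called members of their roles.

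The 10-gene family of MAP kinase phosphatases has 3 more genes, DUSP2, DUSP7 and DUSP9, and the most abundant transcript of the family in the control libraries was DUSP9. DUSP9, a cytoplasmic ERK phosphatase close to DUSP6, had control values of 482, 371 and 360 TPM, and lay at 179, 221 and 200 with disulfiram, at 507, 562 and 486 with thalidomide and at 167, 226 and 178 with the combination. It fell with disulfiram, with a log2 fold change of -1.01 ± 0.14 (limma, adjusted p = 0.000896), and with the combination (-1.08, adjusted p = 0.000615), in 23 of 23 alternatives each. DUSP7 was at 2.82 to 4.45 TPM and did not pass, and DUSP2 was at no more than 0.03 TPM and was not tested.

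Because TPM is scaled for length, the transcripts of the family can be added within a library. The 10 phosphatases summed to 655.6 ± 75.0 TPM in the controls, 564.1 ± 33.6 with disulfiram, 729.7 ± 40.6 with thalidomide and 527.3 ± 47.0 with the combination (SD, n = 3). DUSP9 made up 61.6% ± 4.73 of that sum in the controls and 35.4% ± 1.73 with disulfiram, and DUSP1 23.7% ± 2.97 and 40.8% ± 1.58. With thalidomide the shares were 71% ± 2.26 for DUSP9 and 18.4% ± 2.31 for DUSP1, and with the combination 35.9% ± 2.80 and 41.4% ± 1.03. DUSP1 was therefore the most abundant phosphatase transcript of the family in every library of the disulfiram and combination groups, and DUSP9 in every control and thalidomide library. Without DUSP9 the other 9 genes summed to 251 ± 32.2 TPM in the controls and 364 ± 14.1 with disulfiram. These means lay in the reverse order of those of the sum that includes DUSP9. In the sum with DUSP9 the 2 groups overlapped, with 580.6 TPM in the third control library and 601.3 in the second disulfiram library. In the sum without DUSP9 they did not overlap. These sums and shares were not tested.

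**Figure D3:**
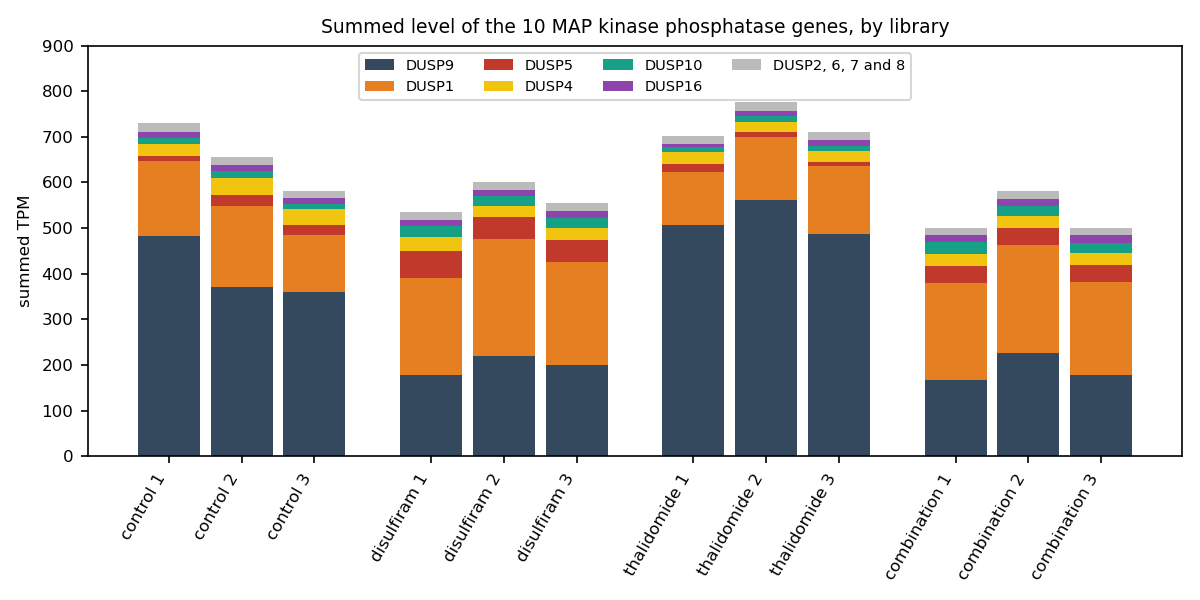
Summed TPM of the 10 MAP kinase phosphatase genes (vertical axis) in each of the 12 libraries (horizontal axis), stacked by gene. DUSP9 filled 61.6% of the bar on average in the controls and 35.4% with disulfiram, while DUSP1 filled 23.7% and 40.8%.

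The genes around the brakes were described from lists drawn up by pathway, with the same fit. The lists were chosen with results of these data already known, and their counts are a description beside the shares called over all genes. Those shares were 8.73% higher and 4.52% lower with disulfiram, and 18.4% higher and 6.70% lower with the combination. Of 2 other tested Sprouty and SPRED genes none passed with disulfiram, and 1 fell with the combination, with medians of -0.32 and -0.30 beside 0.092 and 0.20 for all genes. SPRY1, at 15.6 ± 1.41 TPM in the controls and 11.3 ± 0.416 with disulfiram (SD, n = 3), had log2 fold changes of -0.43 ± 0.14 (limma, adjusted p = 0.0624) and, with the combination, -0.56 ± 0.14 (adjusted p = 0.0166). That call was lost without the second control (adjusted p = 0.0558), the first combination (0.0712) or the third combination library (0.0612). SPRED2 had 19.7 ± 0.0802 TPM in the controls and 17.0 ± 0.411 with disulfiram (log2 fold change -0.21, adjusted p = 0.135).

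Of 7 tested atypical dual-specificity phosphatases, which lack the MAP kinase docking domain, 1 rose with disulfiram. DUSP18 went from 2.18 ± 0.266 to 3.52 ± 0.546 TPM (SD, n = 3; log2 fold change 0.50 ± 0.15, limma adjusted p = 0.0449), and kept the call in 6 of 22 alternatives, missing it without any 1 control library (adjusted p = 0.0675 to 0.144) and without the first or the third disulfiram library (0.130 and 0.149). The list's median was 0.14, beside 0.092 for all genes.

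Upstream, 2 of 10 tested growth factor receptors fell with disulfiram and none rose. FGFR4, the receptor for FGF19 in liver, went from 314 ± 39.8 to 154 ± 26.6 TPM (SD, n = 3; log2 fold change -1.03 ± 0.13, limma adjusted p = 0.000471). FGFR3, a related receptor, went from 146 ± 20.8 to 74.4 ± 11.1 TPM (-0.97 ± 0.13, adjusted p = 0.000773). With the combination the same 2 fell, and MET, the receptor for hepatocyte growth factor, had a log2 fold change of 0.94 ± 0.20 (limma, adjusted p = 0.00808), a gene named after its value was seen. The medians of the 10 receptors were -0.14 with disulfiram and -0.14 with the combination.

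Of 6 tested ligands 1 rose and 1 fell, with disulfiram and with the combination, and the list's medians were 0.33 and 0.39. HBEGF, a membrane-anchored ligand of the EGF receptor, went from 1.67 ± 0.392 to 7.31 ± 0.907 TPM with disulfiram (SD, n = 3; log2 fold change 1.64 ± 0.17, limma adjusted p = 0.000184). FGF19, the hormone that signals through FGFR4, went from 14.8 ± 3.11 to 5.63 ± 0.280 TPM (-1.24 ± 0.17, adjusted p = 0.000931). The fall of FGF19 and FGFR4 stood beside a rise of an EGF receptor ligand.

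Of 15 tested genes of the RAS to ERK cascade 1 rose with disulfiram, MAP2K1, which encodes the ERK kinase MEK1 (33.7 ± 1.05 to 41.7 ± 1.54 TPM, SD, n = 3; log2 fold change 0.30 ± 0.07, limma adjusted p = 0.0213), with 16 of 23 alternatives past the threshold. It missed it without the second or the third control library and without the first or the third disulfiram library (adjusted p = 0.0614 to 0.0774), and with median-of-ratios scaling (0.19, adjusted p = 0.166). With the combination 2 rose (NRAS and MAP2K1) and 2 fell (MAP2K2 and MAPK3), 3 of them named after their values were seen, and the medians were 0.030 with disulfiram and 0.021 with the combination. The calls with the combination passed in 18 of 23 alternatives for NRAS, 17 for MAPK3 and 13 for MAP2K2. All 3 were lost without the first control, the third control, the first combination or the third combination library, with adjusted p-values of 0.0666 to 0.0899 for NRAS, 0.0625 to 0.118 for MAPK3 and 0.0554 to 0.157 for MAP2K2. Without the second control library MAPK3 (0.0622) and MAP2K2 (0.107) were lost, and MAP2K2 also without the third disulfiram (0.0545) or second thalidomide library (0.0502).

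Of 12 tested genes of the JNK and p38 cascade none passed with any treatment against control, and the list's median was 0.048 with disulfiram. Its abundant members MAPK12 and MAP2K3 had control means of 74.8 ± 7.02 and 49.6 ± 3.92 TPM and disulfiram means of 69.8 ± 0.852 and 51.9 ± 2.73 TPM.

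Among 11 other tested ERK target genes, 2 rose and 4 fell with disulfiram. FOSL1, an AP-1 subunit, went from 1.90 ± 0.895 to 7.45 ± 1.15 TPM (SD, n = 3; log2 fold change 1.58 ± 0.24, limma adjusted p = 0.00174), and EGR1, an immediate early transcription factor, from 5.74 ± 2.56 to 14.0 ± 3.19 TPM (1.20 ± 0.28, adjusted p = 0.0164). CCND1, which encodes cyclin D1, went from 84.7 ± 3.20 to 50.1 ± 2.85 TPM (-0.75 ± 0.08, adjusted p = 0.000178). The other 3 that fell, named after their values were seen, were EPHA2 (-0.48 ± 0.12, adjusted p = 0.0252), and the ETS factors ETV4 (-0.74 ± 0.17, adjusted p = 0.0125) and ETV5 (-0.64 ± 0.10, adjusted p = 0.00261). The list's median was -0.19 with disulfiram and 0.25 with the combination, where again 2 rose and 4 fell. EGR1 lost its call without the filter (adjusted p = 0.0515), without the third control library (0.0548) and without the third disulfiram library (0.0577). ETV4 lost it without the third disulfiram library (0.0566). EPHA2 lost it in 6 of 23 alternatives, without any 1 control library and without the first or the third disulfiram library among them (0.0560 to 0.0962).

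Of 10 tested AP-1 and immediate early genes, 7 rose with disulfiram and none fell, and the list's median was 0.74. FOSB went from 1.21 ± 0.598 to 7.81 ± 0.442 TPM (SD, n = 3; log2 fold change 2.02 ± 0.19, limma adjusted p = 8.19e-05). FOS went from 6.48 ± 2.36 to 19.1 ± 2.98 TPM (1.46 ± 0.19, adjusted p = 0.000710) and ATF3, a stress-induced factor of the same dimer family, from 17.5 ± 1.89 to 43.5 ± 5.98 TPM (1.27 ± 0.18, adjusted p = 0.00122). With the combination 6 of the 10 rose and the median was 0.61, beside 18.4% called higher and a median of 0.20 over all genes. JUNB, named after its values were seen as an AP-1 subunit among the 6, had an adjusted p of 0.0499 and passed in 11 of 23 alternatives. It was lost without any 1 control or combination library (0.0889 to 0.123), without the third disulfiram (0.0647) or the third thalidomide library (0.0610), and with median-of-ratios scaling (0.20, adjusted p = 0.411). Likewise named, SRF, the serum response factor, passed with disulfiram in 17 of 23, and was lost without the first or the second control library (0.0616 and 0.0680), the first or the second disulfiram library (0.0540 and 0.0579) and with median-of-ratios scaling (0.35, adjusted p = 0.123). With thalidomide no gene of any list passed.

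**Figure D4:**
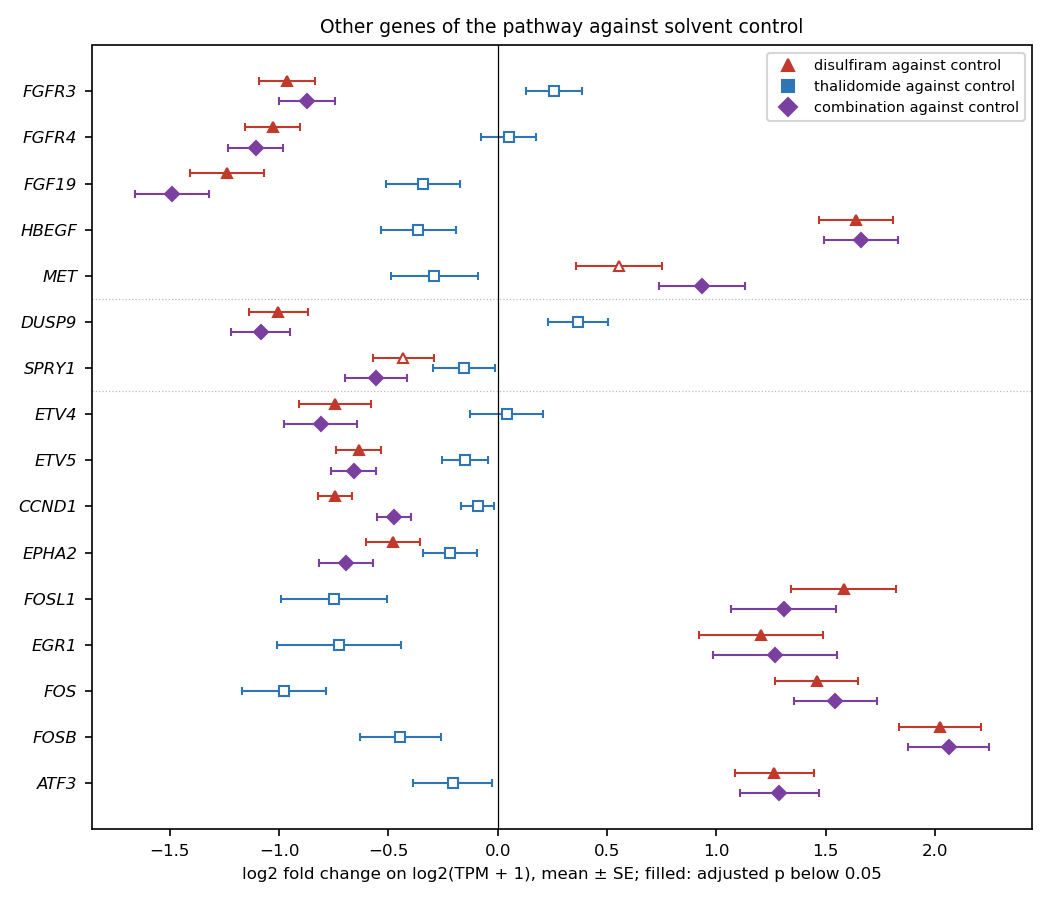
Log2 fold change against control (horizontal axis) of genes from the pathway lists (vertical axis) for disulfiram, thalidomide and the combination, with bars for the standard error and filled points for an adjusted p below 0.05. Every gene shown passed the threshold with disulfiram or with the combination. The many list genes that passed with neither are left out. Some that passed are left out too, among them DUSP18, MAP2K1, NRAS, MAP2K2, MAPK3, JUNB and SRF. The figure therefore shows neither the lists as a whole nor all of their called genes. FGFR4 (-1.03), FGF19 (-1.24) and CCND1 (-0.75) lay below 0 with disulfiram, and HBEGF (1.64), FOSL1 (1.58) and FOSB (2.02) above it.

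As a description of likeness, Pearson's r of log2(TPM + 1) over the 12 libraries was computed between the 4 members called with disulfiram and 9698 tested genes with a mean of at least 5 TPM in 1 group. These libraries share the 4 treatment groups, so a gene with any disulfiram response correlates. The closest genes were TEP1 (0.97), PTTG1IP (0.96) and EGR1 (0.96) for DUSP1, and for DUSP5 they included COTL1 (0.99) and MAFF (0.98). They were NEDD9 (0.99), ERICH5 (0.99) and AMPD3 (0.98) for DUSP10, and CHCHD5 (0.97), VARS (0.96) and UBE2C (0.96) for SPRY4. Between members, r was 0.90 for DUSP5 with DUSP10, 0.89 for DUSP1 with DUSP10 and -0.89 for DUSP10 with SPRY4.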

How the data were processed

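TPM per gene was computed by the authors and deposited as 1 table of 59191 rows, rounded to 2 decimals. The tools were HISAT2 2.0 and StringTie 1.3.0 with genome build hg38, per the submitters' processing notes. The library preparation recorded in the labels describes another kind of sample, so strand and fragment selection are not known, and overlapping and antisense genes are uncertain. TPM keeps no read count: depth is unknown, and no interval for counting error is given.

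Of the identifiers, 58611 were named by GENCODE 29 (hg38). Genes with at least 1 TPM in at least 3 libraries (15352) were compared with limma 3.58.1 (R 4.3.3) on log2(TPM + 1), in one fit of all 12 libraries with limma's trend, 8 residual degrees of freedom, no covariate and two-sided tests. The procedure was tested on simulated data with independent noise for each gene and library. Those data hold no trend with GC content, so they do not test how such a trend affects the calls. All members are named. Of each list up to 3 genes with the largest change past the threshold with disulfiram are named, or the 2 most abundant where none passed, with exceptions stated. Members and lists were chosen with earlier results of these data known. One gene that these rules picked is not reported here.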

Additional observations from a re-analysis of the deposited data

How the results depend on the processing

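Up to 23 alternatives were run for each comparison: a pseudocount of 0.1, no filter, a mean of at least 5 TPM, 2 scalings, only the groups compared, each library left out, the second disulfiram and combination libraries removed, a replicate block, a GC correction, both together, and array weights, whose estimation did not converge. No interaction could be fitted from fewer groups, and SPRED1 and DUSP18 had no value under the mean of 5. Fold changes were followed over these alternatives for all members with disulfiram and with the combination against control. In the other comparisons only members with an unadjusted p below 0.05, and the lowest and highest, were followed. Of the values followed 702 kept direction and side of the threshold, 12 passed it newly, 18 lost it and 21 changed sign. Leaving out each library gave 3 to 5 members called with disulfiram, 2 to 5 with the combination against control (2 without the third combination library) and 3 to 5 against thalidomide (3 without the first thalidomide or first combination library). Array weights gave 8 against control with the combination, beside 8162 of the 15352 genes tested.

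None of the values that changed sign belonged to a called result. DUSP8 with disulfiram was -0.0061 under median-of-ratios scaling and -0.023 under quantile normalization, and ranged from -0.049 to 0.25 with each library left out (thalidomide, -0.034 to 0.27; combination, -0.25 to 0.046). SPRED1 with disulfiram was 0.0031 without the 2 second libraries and 0.012 with array weights (-0.18 to 0.0031 with each library left out). DUSP6 with the combination was -0.11 after median-of-ratios scaling, -0.23 after quantile normalization and -0.14 after GC correction, with or without the replicate block (-0.024 to 0.16 with each library left out). SPRED1 with the combination was -0.019 with quantile normalization and -0.21 with GC correction. With GC correction it was -0.013 against disulfiram and -0.0021 in the interaction. MAP2K3 with disulfiram was -0.040 under median-of-ratios scaling and -0.027 with GC correction. SPRED2 with the combination was 0.0082 without the 2 second libraries and 0.033 with array weights (-0.11 to 0.0082 with each library left out). The cause was not tested.

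Over all genes, leaving out each library gave 1173 to 2190 calls with disulfiram, 0 to 25 with thalidomide, 1426 to 5085 with the combination, 0 to 54 for the combination against disulfiram, 2174 to 5844 against thalidomide and 0 to 1 for the interaction. Array weights gave 3882 with disulfiram, 8162 with the combination, 2902 against disulfiram, 7540 against thalidomide and 1 for the interaction. Removing the second libraries gave 5850 with the combination and 1 with thalidomide, where fitting only the groups compared gave 3. Against disulfiram no filter gave 5, and fitting only the groups compared or adding the replicate block gave 0. For the interaction no filter gave 3, and the other pseudocount, both scalings, the removal and GC correction gave 1 each. The replicate numbers did not pair the libraries throughout: 4 of 18 correlations of same-numbered deviations were over 0.1 (-0.15 to 0.37), the highest between the second disulfiram and second combination libraries, and 6 of 12 libraries correlated best with their own number. The replicate block gave 4, 4 and 5 members called with disulfiram, with the combination and for the combination against thalidomide. Over all genes it gave 1786, 3584 and 4632 calls in these comparisons. Residual degrees of freedom and rounded TPM limit the precision of SPRED1, and depth is unknown.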
